A study of Homo sapiens with 6 samples.

Results

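The calcium/calmodulin-dependent protein kinases (CaMKs) are described here by 10 genes of the 20381 in the count table, found by their symbols. They are *CAMKK1* and *CAMKK2*, *CAMK1*, *CAMK1D* and *CAMK1G*, *CAMK4*, and *CAMK2A*, *CAMK2B*, *CAMK2D* and *CAMK2G*. The family was chosen by values of the same contrast that is described below, the lower *CAMK2B* and the higher *CAMK1G* counts in PON1-OE cells, so the differences of the members between the groups are given as a description. Counts of members past a threshold are printed only beside the same share of all genes, and they support nothing. RNA-seq was performed on poly(A) RNA of HCCLM3, an established human hepatocellular carcinoma cell line, in 3 libraries of cells that overexpress *PON1* (PON1-OE) and 3 of the negative control (NC). *PON1* encodes paraoxonase 1, an esterase that the liver secretes and that binds calcium. PON1-OE cells had been infected with a lentivirus carrying the *PON1* coding sequence and NC cells with the empty vector, and both were selected with puromycin. The promoter of the vector is not given in the sources used here. The design text of the series gives 15% fetal bovine serum and lysis 24 h after transfection, whereas the labels name a stable overexpression and the methods of the study a lower serum content. All values come from 1 cell line, and no source used here states whether the 3 libraries of a group are separate cultures. SD therefore describes the spread between these libraries. The intervals of fold changes come from a model of these libraries that shares information on variance between genes. They do not cover a spread between separate cultures that the libraries may not hold. In such bulk samples, fewer cells that express a gene and less RNA per cell cannot be told apart.

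Calcium that enters the cytosol is bound by calmodulin, and the CaMKs are serine/threonine kinases that calcium-loaded calmodulin switches on. In the CaMK cascade, the kinases CAMKK1 and CAMKK2 phosphorylate a threonine in the activation loop of CaMK1 and CaMK4, and CAMKK2 also phosphorylates AMPK, the kinase that responds to a low energy state. CaMK2 needs no such upstream kinase, since its subunits assemble into a holoenzyme and phosphorylate each other at a threonine beside the calmodulin-binding stretch. *CAMK2A* and *CAMK2B* are best known from the brain, whereas *CAMK2D* and *CAMK2G* are widely expressed and have been studied in hepatocytes for their part in glucose production.

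The coding sequence around the autophosphorylated threonine of CaMK2 is shown because the 4 *CAMK2* genes are alike there, which bears on how reads are assigned to a copy. The codon of the threonine is in capitals (codon 286 in *CAMK2A* and codon 287 in the other 3), and the calmodulin-binding stretch follows it. The sequences are from GENCODE v29 transcripts on GRCh38, are read 5′ to 3′ and are joined from 2 exons each. They lie on the minus strand at chr5:150247794-150250285 (*CAMK2A*), chr7:44240729-44241759 (*CAMK2B*), chr4:113513350-113513889 (*CAMK2D*) and chr10:73842191-73842517 (*CAMK2G*).
CAMK2A: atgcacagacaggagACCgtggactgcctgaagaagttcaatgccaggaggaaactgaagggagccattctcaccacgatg
CAMK2B: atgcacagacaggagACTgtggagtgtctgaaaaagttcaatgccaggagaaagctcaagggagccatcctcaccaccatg
CAMK2D: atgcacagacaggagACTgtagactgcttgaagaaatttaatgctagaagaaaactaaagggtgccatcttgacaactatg
CAMK2G: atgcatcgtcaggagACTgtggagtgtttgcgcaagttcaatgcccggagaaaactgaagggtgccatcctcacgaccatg
Over these 81 bases, *CAMK2B* differed from *CAMK2A* at 9, from *CAMK2G* at 12 and from *CAMK2D* at 16 bases. The longest stretch identical between transcripts of any pair of *CAMK2* genes was 35 bases, shared by *CAMK2A* and *CAMK2B*. For *CAMK2B*, 0 of the 8888 distinct 50-base words of its transcripts occurred in a transcript of another gene. The words were compared on the transcript strand only. A read that covers 50 bases of *CAMK2B* exactly therefore names this gene in the annotation used here where its strand is known. Reads without strand were not covered by this comparison. It also does not show how the authors assigned reads. Of the deposited estimated counts of *CAMK2B*, 5 were not whole numbers, and the source of these fractions was not tested.

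The activation loop around the threonine that CaMKK phosphorylates is shown for *CAMK1* and *CAMK1G*, the first the CaMK1 gene with the highest level in these cells and the second a member whose low counts were used to choose the family. The codon of the threonine is again in capitals (codon 177 in *CAMK1* and codon 178 in *CAMK1G*). Each stretch is joined from 2 exons, of *CAMK1* at chr3:9761532-9761685 on the minus strand and of *CAMK1G* at chr1:209606389-209607862 on the plus strand.
CAMK1: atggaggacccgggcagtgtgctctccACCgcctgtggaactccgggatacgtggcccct
CAMK1G: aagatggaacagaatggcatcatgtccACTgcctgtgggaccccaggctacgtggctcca
These stretches differed at 21 of 60 bases. For *CAMK1G*, 0 of 2717 words of 50 bases occurred in the transcripts of another gene, again on the transcript strand only.

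The library totals were 15706672 to 17948383 counts, so that 3 counts, the limit below which a gene is treated as not detected in a library, were 0.166 to 0.191 CPM (counts scaled to a common library total, with TMM factors). *PON1* had 0, 2 and 3 counts in the NC libraries and 155, 181 and 167 in the PON1-OE libraries, high only in the libraries labelled PON1-OE. The liver tumor marker list summed to 3735 to 4233 CPM in NC against 3886 to 4119 CPM in PON1-OE libraries, almost all of it from the keratins *KRT8* and *KRT18*. *HNF4A*, a transcription factor of hepatocytes, was at 72.5 to 82.4 CPM, whereas *ALB*, the gene of serum albumin, did not exceed 0.762 CPM, and *TTR* and *SERPINA1*, other secreted products of hepatocytes, exceeded 3 counts in none of the 6 libraries. Of the other secreted products on the list, *APOB* was at 3.75 to 6.24 CPM, *FGB* at 0.442 to 1.70 CPM, *AFP* at 0.221 to 1.09 CPM and *APOA1* at 0 to 0.276 CPM. The label "Hepatocyte" is thus met only in part, by *HNF4A*, the keratins and a low level of *APOB*, while no other secreted product on the list exceeded 1.70 CPM. A list of 5 fibroblast markers summed to 15.8 to 20.76 CPM in NC against 16.59 to 19.94 CPM in PON1-OE libraries. Nearly all of this was *LUM* at 11.05 to 15.98 CPM and *DCN* at 3.4 to 6.689 CPM. Of 5 muscle markers, 4 were at 0 in every library and 0 exceeded 3 counts in any. The origin of the *LUM* and *DCN* counts was not tested.

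Among the members, *CAMKK2* had the highest level per length, and the 10 genes spanned the range from there to 0 counts. To compare genes, CPM was divided by the merged exon length in kb, and values are means over the 6 libraries. *CAMKK2* was at 12.5 CPM per kb, which placed it 3565th of the 11897 tested genes with a length. *CAMK2D* followed at 7.03 and *CAMK1* at 5.89 CPM per kb, and the ranges of these neighbors overlapped. Their order turned when the longest transcript was taken as the length, where *CAMK2D* was at 0.826 times the level of *CAMK1*. Of the 2720 exonic bases of *CAMK1*, 2180 are also exonic in *OGG1* on the opposite strand. Without strand, the level of *CAMK1* may include reads of *OGG1*, so its place among the members is uncertain. *CAMKK1* came next at 3.46 and *CAMK2G* at 1.87 CPM per kb, both apart from the neighbor above and below in all libraries.
*CAMK2B* was at 0.334 CPM per kb, 5.6-fold below *CAMK2G* and 11170th of the 11897 genes. Its range overlapped that of *CAMK1G* at 0.172 CPM per kb. *CAMK2A* at 0.0062 and *CAMK1D* at 0.0045 CPM per kb could not be ordered, since neither exceeded 3 counts in any library, and *CAMK4* had 0 counts in all 6.

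**Figure D1:**
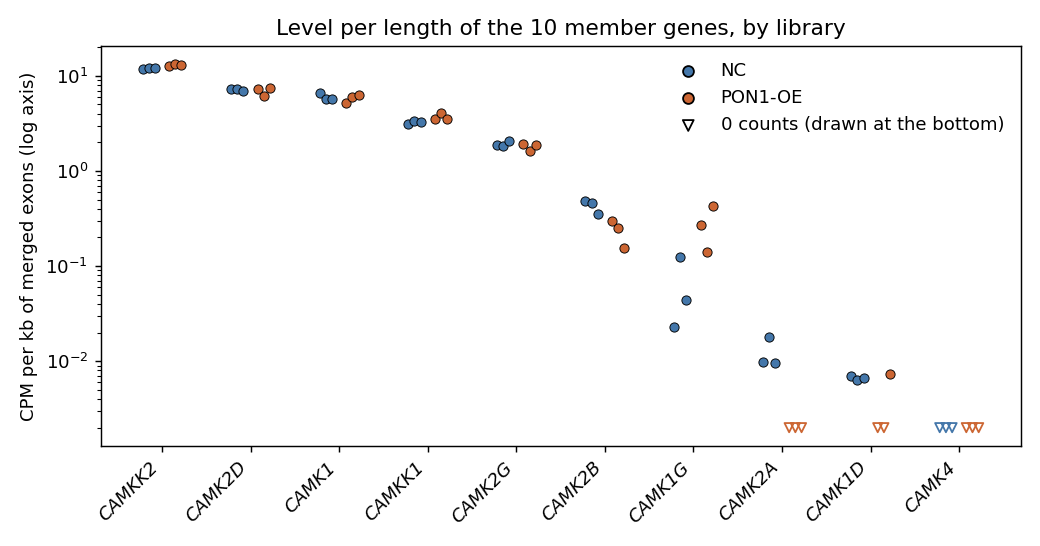
Level of each of the 10 genes in each library in CPM per kb of merged exons, on a log axis, with NC in blue, PON1-OE in orange and libraries with 0 counts as open triangles at the bottom. *CAMKK2* is highest at 12.5 CPM per kb on average, *CAMK2B* at 0.334 and *CAMK1G* at 0.172 lie far below the other detected genes, and *CAMK4* has 0 counts in every library.

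After scaling to library size, the genes of both CaMKK kinases were slightly higher in every PON1-OE than in every NC library. The CPM of the groups did not overlap for 16.1% of all 11958 tested genes. *CAMKK2* (chr12:121237691-121298308, minus strand) had 1357, 1533 and 1442 counts in NC against 1443, 1473 and 1405 in PON1-OE libraries. As CPM these were 82.1, 84.7 and 84.5 CPM in NC against 87.8, 92.1 and 89.7 CPM in PON1-OE. The raw counts of the groups overlapped, whereas the CPM did not. The means were 83.8 ± 1.43 and 89.9 ± 2.14 CPM (SD, n = 3 each), a log2 fold change (log2FC, PON1-OE against NC) of 0.10 with SE 0.048 and a 95% interval of 0.0009 to 0.20. *CAMKK1* (chr17:3860315-3894891, minus strand) had 385, 446 and 415 counts in NC against 426, 478 and 410 in PON1-OE libraries, or 23.3, 24.6 and 24.3 against 25.9, 29.9 and 26.2 CPM. PON1-OE 2 stood above the other libraries of its group. The means of *CAMKK1* were 24.1 ± 0.70 and 27.3 ± 2.22 CPM, a log2FC of 0.18 with SE 0.079 and an interval of 0.016 to 0.35. Both intervals end close to 0 on the lower side. Summed, the 2 genes were at 107.9 ± 2.12 CPM in NC against 117.2 ± 4.27 CPM in PON1-OE libraries, with ranges that did not overlap.

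Of the CaMK1 and CaMK4 genes among the members, *CAMK1* had much the highest level and did not separate the groups. *CAMK1* (chr3:9757342-9769992, minus strand) had 295, 280 and 264 counts in NC against 230, 258 and 269 in PON1-OE libraries, or 17.9, 15.5 and 15.5 against 14, 16.1 and 17.2 CPM. The highest value was an NC library and the lowest a PON1-OE library, and the groups overlapped. The means were 16.3 ± 1.38 and 15.8 ± 1.62 CPM, with a log2FC of −0.05 and an interval of −0.26 to 0.17. Of the 2720 exonic bases of *CAMK1*, 2180 are also exonic in *OGG1*, a DNA repair gene on the opposite strand. The library kit is not described as stranded, and without strand the reads of these genes cannot be told apart over the shared bases. *OGG1* was at 39.1 ± 1.39 CPM in NC against 39.9 ± 1.14 CPM in PON1-OE libraries.

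*CAMK1G* (chr1:209583717-209613938, plus strand), which encodes the gamma form of CaMK1 known mainly from the brain, had 1, 6 and 2 counts in NC against 12, 6 and 18 in PON1-OE libraries. NC 2 and PON1-OE 2 tied at 6 counts, and only after scaling, at 0.332 and 0.375 CPM, did the groups not overlap. Over the groups the sums were 9 and 36 counts. Pooled, this was 0.174 CPM in NC, with an exact 95% Poisson interval of 0.0796 to 0.331 CPM, and 0.748 CPM in PON1-OE, with an interval of 0.524 to 1.04 CPM. These intervals cover counting error only, not the spread between libraries. *CAMK1G* did not pass the filter on low counts. Fitted without the filter, its log2FC was 2.07 with SE 0.68 and an interval of 0.72 to 3.41, and it ranged from 1.64 without PON1-OE 3 to 2.97 without NC 2. PON1-OE 3 held 18 of the 36 counts, and NC 2 held 6 of the 9.

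The other members of this branch were at or under the floor. *CAMK1D*, the delta form of CaMK1, had 1, 1 and 1 counts in NC against 0, 0 and 1 in PON1-OE libraries. *CAMK4*, a nuclear kinase of neurons and T cells that acts on the transcription factor CREB, had 0 counts in all 6 libraries. No fold change is given for either. The leukocyte markers *PTPRC*, *CD3E* and *CD2* were also at 0 in every library, and the 5 genes of that list summed to at most 0.128 CPM. *CAMK1*, *CAMK1D* and *CAMK1G* together were at 16.5 ± 1.29 CPM in NC against 16.5 ± 1.83 CPM in PON1-OE libraries.

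**Figure D2:**
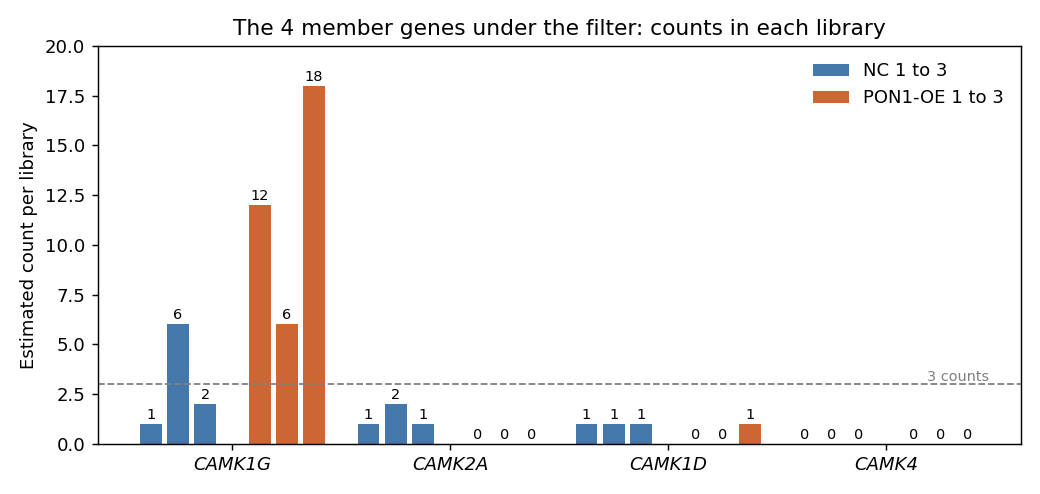
Estimated counts in each of the 6 libraries for the 4 members that did not pass the filter on low counts, with NC in blue, PON1-OE in orange and the floor of 3 counts as a dashed line. *CAMK1G* has 1, 6 and 2 counts in NC against 12, 6 and 18 in PON1-OE libraries, and no library of *CAMK2A*, *CAMK1D* or *CAMK4* exceeds the floor.

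Within CaMK2, *CAMK2B* was lower in PON1-OE cells, whereas *CAMK2D* and *CAMK2G*, which carry most of the CaMK2 level, overlapped between the groups. *CAMK2B* (chr7:44217150-44334577, minus strand) encodes the beta subunit, which binds actin. It had estimated counts of 65.29, 68.35 and 48.67 in NC against 39.62, 33.33 and 20 in PON1-OE libraries, or 3.94, 3.76 and 2.87 against 2.43, 2.06 and 1.28 CPM. The 3 PON1-OE values all lay under the 3 NC values, with the smallest distance between NC 3 and PON1-OE 1 and the lowest value in PON1-OE 3. The means were 3.52 ± 0.57 CPM in NC against 1.92 ± 0.59 CPM in PON1-OE, so that PON1-OE was at 54.7% of NC. The log2FC was −0.86 with SE 0.25 and an interval of −1.38 to −0.35, and it was −0.64 without PON1-OE 3 and −1.07 without PON1-OE 1. *CAMK2B* was the only one of the 10 members with values that were not whole numbers, 5 of 6. None of its exonic bases is exonic in another gene on either strand. The annotation lists 26 transcripts for it, and the table holds 1 value per gene, so their shares were not analysed here.
The 6 neuron markers summed to 9.38 to 11.8 CPM in NC against 10.8 to 12.8 CPM in PON1-OE libraries. Nearly all of this was *SYT1*, a calcium sensor of vesicle release, at 9.32 to 12.6 CPM, and the other 5, among them *RBFOX3*, did not exceed 3 counts in any library. The part of these markers in the *CAMK2B* values was not tested.

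*CAMK2D* (chr4:113451032-113761927, minus strand), which encodes the delta subunit, had 874, 972 and 871 counts in NC against 881, 717 and 854 in PON1-OE libraries, or 52.9, 53.7 and 51.0 against 53.6, 44.8 and 54.5 CPM. PON1-OE 2 lay below the other 5 libraries, which were within 51.0 to 54.5 CPM. The means were 52.6 ± 1.36 and 51.0 ± 5.35 CPM, with a log2FC of −0.04 and an interval of −0.19 to 0.10, and without PON1-OE 2 the log2FC was 0.04. *CAMK2G* (chr10:73812501-73874591, minus strand), which encodes the gamma subunit, had 211, 223 and 238 counts in NC against 216, 177 and 199 in PON1-OE libraries, or 12.8, 12.3 and 13.95 against 13.2, 11.1 and 12.7 CPM. Its lowest value was again in PON1-OE 2 and its highest in NC 3. The means of *CAMK2G* were 13.01 ± 0.84 and 12.3 ± 1.10 CPM, with a log2FC of −0.08 and an interval of −0.30 to 0.14. *CAMK2A*, which encodes the alpha subunit that is abundant in forebrain neurons, had 1, 2 and 1 counts in NC against 0 in all 3 PON1-OE libraries, none above the floor, so that a fold is not given.

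**Figure D3:**
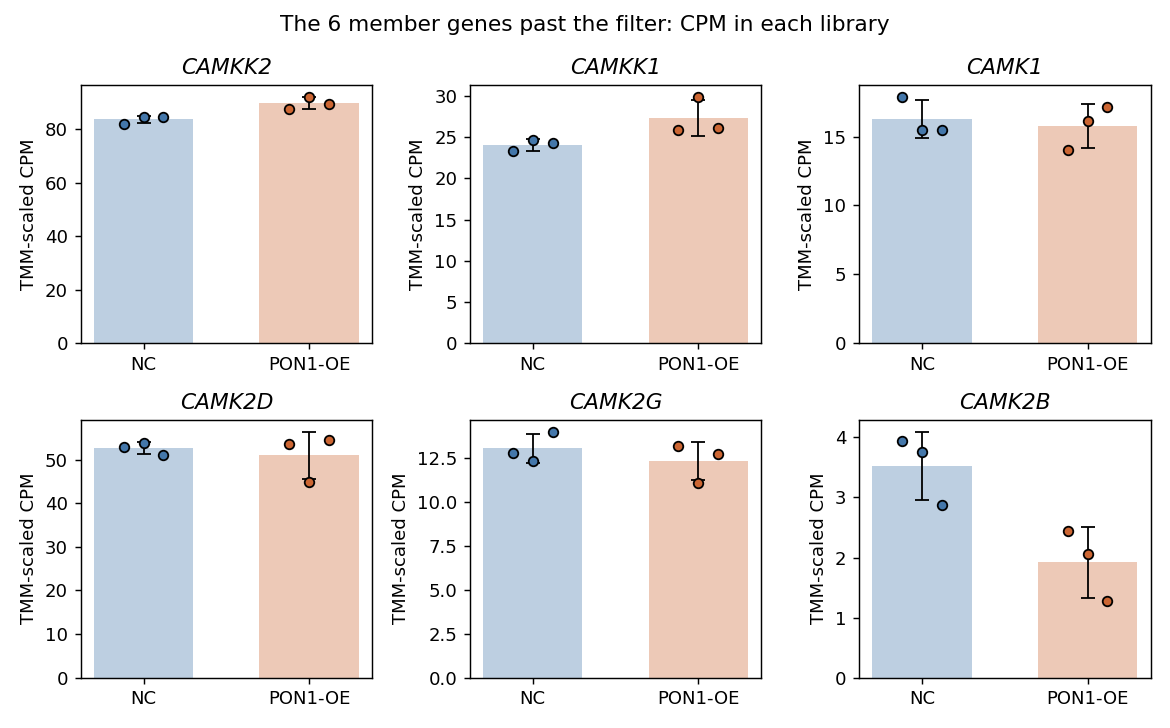
CPM of the 6 members that passed the filter on low counts, as points for the 3 libraries of each group, with bars for the mean and whiskers for the SD, on axes that start at 0. *CAMKK2*, *CAMKK1* and *CAMK2B* do not overlap between the groups, with *CAMK2B* at 3.52 and 1.92 CPM on average, whereas *CAMK1*, *CAMK2D* and *CAMK2G* overlap. Of all 11958 genes that passed the filter, 16.1% do not overlap.

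The make-up of CaMK2 was taken from the share of each gene in the summed CPM per kb of the 4 *CAMK2* genes. *CAMK2D* made up 75.1% ± 0.96 in NC against 77.1% ± 1.19 in PON1-OE libraries (SD, n = 3 each), and *CAMK2G* 20.2% ± 1.59 and 20.2% ± 0.33. *CAMK2B* made up 5.04%, 4.80% and 3.76% in the NC libraries and 3.13%, 3.17% and 1.66% in the PON1-OE libraries. The *CAMK2B* shares did not overlap, and their means were 4.54% ± 0.68 and 2.66% ± 0.86. The *CAMK2D* shares did not overlap either, at most 76.1% in NC and at least 76.4% in PON1-OE libraries. Shares within a library depend on each other. With the longest transcript as the length the *CAMK2B* share was 5.97% in NC against 3.52% in PON1-OE. The summed CPM of the 4 genes was 69.2 ± 1.08 in NC against 65.2 ± 6.30 in PON1-OE libraries and overlapped, with PON1-OE 2 the lowest at 58.0 CPM. *CAMK2B* was thus a small part of the CaMK2 level in both groups. All 10 members together were at 193.5 ± 1.40 CPM in NC against 198.9 ± 3.31 CPM in PON1-OE libraries. These sums did not overlap, at most 195.1 CPM in NC and at least 196.4 CPM in PON1-OE libraries. The CaMKK genes held 107.9 CPM of the mean sum in NC and 117.2 CPM in PON1-OE.

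**Figure D4:**
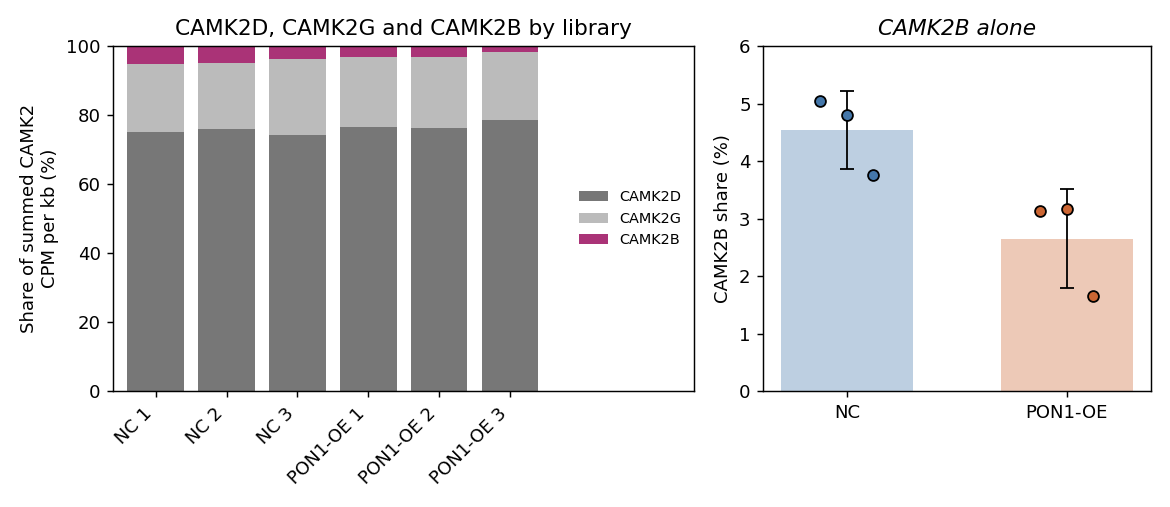
Left, share in percent of *CAMK2D*, *CAMK2G* and *CAMK2B* in the summed CPM per kb of the *CAMK2* genes in each library, with *CAMK2A* left undrawn since it is at most 0.187%. Right, the *CAMK2B* share alone as points for the libraries, with bars for the mean and whiskers for the SD, which is 4.54% in NC against 2.66% in PON1-OE.

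Set against all genes, the members were counted by each rule as follows. Nothing is read from these counts because the contrast was used to choose the family. By the quasi-likelihood test of edgeR, 6 of the 11958 genes that passed the filter on low counts (0.0502%) had an adjusted p under 0.05 with a change of over 1.5-fold in either direction, and 0 of the 6 members that passed the filter were among them. At an unadjusted p under 0.05 with the same fold there were 73 genes (0.61%) and 1 member, *CAMK2B*. At an unadjusted p under 0.05 alone there were 1325 genes (11.1%) and 3 members, *CAMK2B*, *CAMKK1* and *CAMKK2*. Over 12 alternatives *CAMKK1* stayed under that p in 8 and *CAMKK2* in 4, and neither did with DESeq2. The CPM of the groups did not overlap for 1922 genes (16.1%) and for the same 3 members. Without the filter on low counts, 23 of 15542 genes (0.148%) met the adjusted p and the fold, and of the 9 members then fitted *CAMK2B* was 1 of them. The unadjusted p and the fold were met by 201 genes (1.29%) without the filter, and by *CAMK2B* and *CAMK1G* among the members.

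The genes around the CaMKs were taken from 6 lists of 60 genes, the calcium sensor calmodulin, inhibitors and phosphatases of CaMKs, calcineurin, related kinases, AMPK subunits, and transcription factors and co-regulators that CaMKs act on. Of these, 43 were tested, 21 with a higher and 22 with a lower estimate in PON1-OE cells. Their median log2FC was −0.004, where that of all 11958 genes was −0.003. None of the 43 passed an adjusted p of 0.05 in edgeR, and at an unadjusted p under 0.05 there were 2 higher and 4 lower genes, 13.95% of the 43 beside 11.1% of all genes, while DESeq2 gave 3 at that unadjusted p. The split between directions depended on single libraries, with 0 higher and 5 lower without NC 2 and 4 higher and 2 lower without PON1-OE 2.

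Calmodulin, which switches on the CaMKs when loaded with calcium, is encoded by several genes, and 4 genes of its list were tested. *CALM2* had 16392, 16645 and 17011 counts in NC against 17021, 16610 and 15923 in PON1-OE libraries, or 969.7 ± 43.3 and 1030 ± 12.2 CPM. The raw counts of the groups overlapped, whereas the CPM did not. Its log2FC was 0.09 (edgeR quasi-likelihood test, unadjusted p = 0.0208, adjusted p = 0.349), and without NC 2 the unadjusted p was 0.163. The calmodulin genes have processed copies in the genome, so that their counts depend on how the authors assigned reads to such copies. The difference of *CALM2* was small and did not pass the adjusted test.

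Of the genes that restrain CaMKs, 3 of 4 were tested and 0 passed an unadjusted p of 0.05. *CAMK2N1*, which encodes an inhibitor protein of CaMK2, had the highest level of the list at 47.2 ± 0.32 CPM in NC against 44.0 ± 3.03 CPM in PON1-OE libraries, with a log2FC of −0.10. The CPM of *CAMK2N1* did not overlap between the groups. Of the calcineurin genes, which encode the phosphatase that calmodulin activates and its regulators, 6 of 8 were tested and 0 passed. *PPP3R1*, the regulatory subunit with the highest level of that list, was at 142.4 ± 4.99 and 135.7 ± 2.50 CPM and overlapped.

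Among the related kinases 9 of 17 were tested, with 3 higher and 6 lower estimates. *DAPK2*, a calmodulin-regulated kinase of cell death and autophagy, had 249, 222 and 227 counts in NC against 197, 175 and 169 in PON1-OE libraries, and the groups did not overlap. Its log2FC was −0.27 (edgeR unadjusted p = 0.0236, adjusted p = 0.362), and without NC 1 the unadjusted p was 0.141. *PNCK* had 31, 19 and 24 counts in NC against 17, 14 and 13 in PON1-OE libraries. Its log2FC was −0.65 (edgeR unadjusted p = 0.0714, adjusted p = 0.504). *DAPK1* had a log2FC of −0.17 (edgeR unadjusted p = 0.0673, adjusted p = 0.496). Neither *PNCK* nor *DAPK1* overlapped between the groups, as was so for 16.1% of all tested genes. Among the AMPK subunits, which form the kinase that CAMKK2 phosphorylates, 6 of 7 were tested, with 5 higher and 1 lower estimates. The lower one, *PRKAA1*, the catalytic alpha-1 subunit, was at 57.3 ± 2.56 CPM in NC against 51.4 ± 3.46 CPM in PON1-OE libraries and overlapped between the groups. Its log2FC was −0.16 (edgeR unadjusted p = 0.0203, adjusted p = 0.344), and without PON1-OE 2 the unadjusted p was 0.107.

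Of the transcription factors and co-regulators, 15 of 17 were tested, with 6 higher and 9 lower estimates. *HDAC9*, a histone deacetylase that leaves the nucleus when CaMKs phosphorylate it, had 1605, 1809 and 1645 counts in NC against 1502, 1332 and 1414 in PON1-OE libraries. Its means were 97.8 ± 1.87 and 88.3 ± 4.40 CPM without overlap, with a log2FC of −0.15 (edgeR unadjusted p = 0.00709, adjusted p = 0.228), and of the list genes named here it was the only one whose unadjusted p stayed under 0.05 without each library in turn, at most 0.0376. *ATF1*, a relative of CREB that CaMKs phosphorylate, was at 40.6 ± 0.98 CPM in NC against 36.3 ± 1.08 CPM in PON1-OE libraries, without overlap. Its log2FC was −0.16 (edgeR unadjusted p = 0.0212, adjusted p = 0.350), and without PON1-OE 1 the unadjusted p was 0.0874. *CREB1* itself was at 21.2 ± 0.45 and 20.9 ± 1.29 CPM and overlapped.

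**Figure D5:**
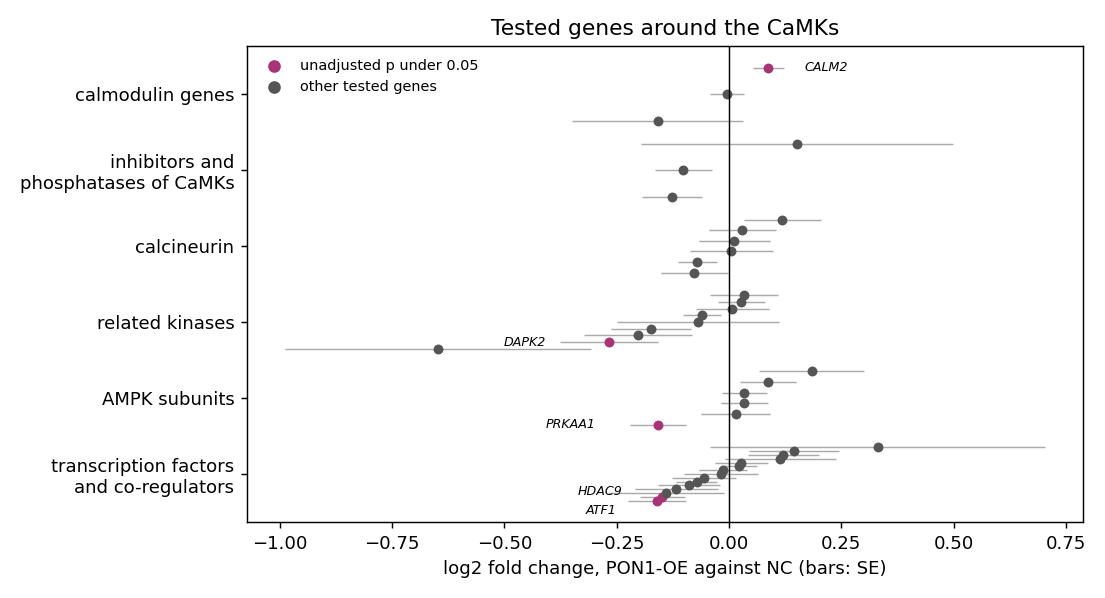
The log2FC of PON1-OE against NC for tested genes of the 6 lists, 1 point per gene with bars for the SE, with genes at an unadjusted p under 0.05 named and in purple. Points lie on both sides of 0 in every list, and no gene passed the adjusted test.

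Across the 6 libraries, the genes whose log2 CPM ran most like that of *CAMK2B* among the other 11957 tested genes were *SCP2*, which encodes a sterol carrier protein, with a Pearson r of 0.992, *PTGS2*, which encodes cyclooxygenase-2, with 0.990, and *LPCAT3*, which encodes a phospholipid-remodeling enzyme, with 0.987. For *CAMKK2* they were *RCCD1* with 0.996, *LAS1L* with 0.993 and *SLC1A4* with 0.990. These r are the highest of many over 6 points that share their libraries and the contrast, and are given as a description without a test. *SCP2* had 977, 1071 and 967 counts in NC against 923, 861 and 793 in PON1-OE libraries. Its lowest count was in PON1-OE 3, as for *CAMK2B*.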

How the data were processed

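Poly(A) RNA libraries of 3 NC and 3 PON1-OE samples were sequenced on an Illumina instrument. The authors deposited 1 table of estimated counts per gene, not normalized, of which 10.46% were not whole numbers. The submitters' processing notes name Bowtie2 2.2.8, HISAT2, StringTie 1.3.1 and DESeq2. The genome build and annotation are not given in the sources used here. Columns were assigned to samples by name. Counts were rounded and fitted in R 4.3.3 with edgeR 4.0.16 (filterByExpr, TMM, glmQLFit and glmQLFTest, PON1-OE against NC, no covariates), with p-values adjusted by Benjamini-Hochberg over 11958 genes. The fit was tested on simulated data. Alternatives used limma 3.58.1 and DESeq2 1.42.0 among others. The totals of 15706672 to 17948383 counts give 0.166 to 0.191 CPM for 3 counts, which covers counting error only. Gene models, lengths and sequences were from GENCODE v29 (GRCh38), which may differ from the authors' annotation. Members and lists were chosen with earlier results of these data known. Named were all members, *PON1*, list genes with an unadjusted p under 0.05 or otherwise the gene with the highest level, and the 3 genes most like *CAMK2B* and the 3 most like *CAMKK2*. *CREB1*, *OGG1*, *PNCK* and *DAPK1* were added after their values were seen. The values of 1 list gene are not reported here, although the counts over the lists include it.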

Additional observations from a re-analysis of the deposited data

How the results depend on the processing

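The count of genes past the adjusted p and the fold, 6 with 3 higher and 3 lower, was 4 with 3 higher and 1 lower under RLE size factors, 23 without the filter, 1 with DESeq2 and 81 without the fold threshold. Leaving out each library gave 4 to 10, with 10 without NC 2. At the unadjusted p the 73 genes became 201 without the filter and 1325 without the fold threshold, and leaving out each library gave 78 to 129, with 129 without NC 2. The 6 list genes at an unadjusted p under 0.05 became 3 with DESeq2, and 4 to 6 without each library. The 1 member past the unadjusted p and fold, *CAMK2B*, became 2 without the filter and with DESeq2, *CAMK1G* in addition, 3 without the fold threshold, and 1 to 2 without each library.

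The replicate numbers did not pair the libraries (correlations of the deviations 0.030, −0.057 and −0.015 for the same number). With a replicate block, 5 genes passed the adjusted p and the fold and 82 the unadjusted p and the fold, and 5 list genes had an unadjusted p under 0.05.

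The log2FC of *CAMK2B* was −1.07 to −0.64 over 12 alternatives. That of *CAMK1G* was 1.64 to 2.97 over 8, that of *CAMKK1* 0.11 to 0.22 and that of *CAMKK2* 0.08 to 0.12 over 12. The sign of *CAMK1* turned in 2 of 12 alternatives and that of *CAMK2D* in 1, and that of *CAMK2G* in 0. At this depth, differences of *CAMK1D*, *CAMK2A* and *CAMK4* were not detectable. The causes of these changes were not tested.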
